A study of Mus musculus with 6 samples.

Results

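The mitochondrial genome of the mouse encodes 37 genes, and all 37 were found by identifier in the deposited count table of 55414 genes. They were taken as every gene whose symbol starts with mt-, and comprise 13 protein-coding genes, 2 rRNA genes and 22 tRNA genes. They were measured in 6 RNA-seq libraries of Paneth cells, the antimicrobial secretory cells of the small intestinal crypt, which had been sorted by FACS from wild-type mice. In the study's methods the mice are C57BL/6J. The labels do not tie libraries to animals, but the study describes its sorted samples as coming from individual mice, so the replicates are taken as separate animals. The St_TNF group (3 libraries) had standard chow (standard diet) and the ZincDef_TNF group (3 libraries) had zinc depleted chow for 7 weeks. Both groups, controls included, received tumor necrosis factor (TNF) 3 hours before sampling, so no library shows these cells without TNF. The age of the mice is not given in the sources used here, and the design text speaks of 4 biological replicates per group.

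Mitochondrial DNA is a small circle that is transcribed from both strands into long precursor RNAs. The tRNAs lie between most of the larger genes, and their excision frees the rRNAs and mRNAs. The proteins are all core subunits of the respiratory chain and of ATP synthase: the Nd subunits belong to complex I, mt-Cytb to complex III, the Co subunits to complex IV, and mt-Atp6 and mt-Atp8 to ATP synthase (complex V). The 12S rRNA (mt-Rnr1) and the 16S rRNA (mt-Rnr2) form the small and the large subunit of the mitochondrial ribosome. Many copies of mitochondrial DNA have been inserted into nuclear chromosomes during evolution, and such copies share sequence with the mitochondrial genes.

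Only 8 of the 37 genes held enough counts to be tested for an effect of diet, and the others were almost all at 0. The 8 were mt-Rnr1, mt-Rnr2, mt-Nd1, mt-Nd2, mt-Co1, mt-Nd4, mt-Nd5 and mt-Cytb. No count at all was found in any library for 6 of the 13 protein-coding genes: mt-Co2, mt-Atp8, mt-Atp6, mt-Co3, mt-Nd3 and mt-Nd4l. These 6 genes are neighbours, and with 5 tRNA genes they lie wholly inside a stretch of the mitochondrial genome that is also present on chromosome 1. In GRCm39 this stretch runs from 6394 to 11042 on the mitochondrial genome, and its copy lies at chr1:24650616-24655265 on the minus strand. The copy was made up of 3 blocks of exact match, of 3067, 367 and 1222 bases.

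The sequences below show how little separates the genes at 0 from their nuclear copy. They are given 5′ to 3′ along the mitochondrial plus strand, and the chromosome 1 sequences are from the minus strand of GRCm39. The first 75 bases of mt-Co2 (chrM:7013-7087) were identical to chr1:24654572-24654646.
mt-Co2 start: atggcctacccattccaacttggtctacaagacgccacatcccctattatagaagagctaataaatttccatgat
The first 60 bases of mt-Nd3 (chrM:9459-9518) differed from chr1:24652141-24652200 at a single base, shown in capitals. The substitution is T9461C, with the mitochondrial base first and the position counted along the mitochondrial genome.
mt-Nd3 start, mitochondrial genome: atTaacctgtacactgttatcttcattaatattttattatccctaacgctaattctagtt
mt-Nd3 start, chromosome 1 copy: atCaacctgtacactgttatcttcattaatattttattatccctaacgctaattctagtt
The tRNA gene mt-Tr (chrM:9808-9875, 68 bases) held a run of 8 A, shown in capitals, where the copy (chr1:24651783-24651851, 69 bases) held a run of 9.
mt-Tr, mitochondrial genome: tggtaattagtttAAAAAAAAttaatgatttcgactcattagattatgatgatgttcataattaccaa
mt-Tr, chromosome 1 copy: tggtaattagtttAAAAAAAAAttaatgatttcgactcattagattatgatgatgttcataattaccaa

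The edges of the copy fall inside 2 genes that did hold counts. The first is in mt-Co1 (chrM:6364-6423 against chr1:24655236-24655295) and the second in mt-Nd4 (chrM:11013-11072 against chr1:24650586-24650645). The shared bases are in capitals.
edge in mt-Co1, mitochondrial genome: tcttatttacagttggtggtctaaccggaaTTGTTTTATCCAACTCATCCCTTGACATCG
edge in mt-Co1, chromosome 1: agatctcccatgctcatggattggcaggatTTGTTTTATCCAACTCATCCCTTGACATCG
edge in mt-Nd4, mitochondrial genome: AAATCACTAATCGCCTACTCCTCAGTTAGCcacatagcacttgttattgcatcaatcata
edge in mt-Nd4, chromosome 1: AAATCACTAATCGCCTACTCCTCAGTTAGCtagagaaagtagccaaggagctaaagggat
Of mt-Co1, 479 of 1545 bases were inside the copied stretch, and of mt-Nd4, 876 of 1378 bases.

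Among the rRNA and protein-coding genes, those at 0 in every library were the ones with almost no sequence of their own. For each gene, every stretch of 75 bases was searched for exact matches in the whole of GRCm39, on both strands. The share found once was 0% for mt-Co2, mt-Atp8, mt-Atp6, mt-Co3 and mt-Nd4l, and 1.09% (3 of 274 stretches) for mt-Nd3. It was 38.5% for mt-Nd4 and 60.2% for mt-Co1. For mt-Rnr2, mt-Nd2 and mt-Nd5 it was 97.1%, 94.3% and 98.3%, and for mt-Rnr1, mt-Nd1, mt-Nd6 and mt-Cytb it was 100%. The same 6 protein-coding genes stayed under 5% with stretches of 50, 100 or 150 bases. The annotated pseudogenes that make up the chromosome 1 copy held almost no counts either. Gm28661, the copy of mt-Co2 (681 bases), had 1 count in the 6 libraries together, Gm28437 (783 bases) had 2 counts and Atp6-ps (678 bases) had 1. Neither the 6 genes nor their copy held counts from which a level could be read, and how the authors' counter treated reads with several matches is not stated.

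**Figure D1:**
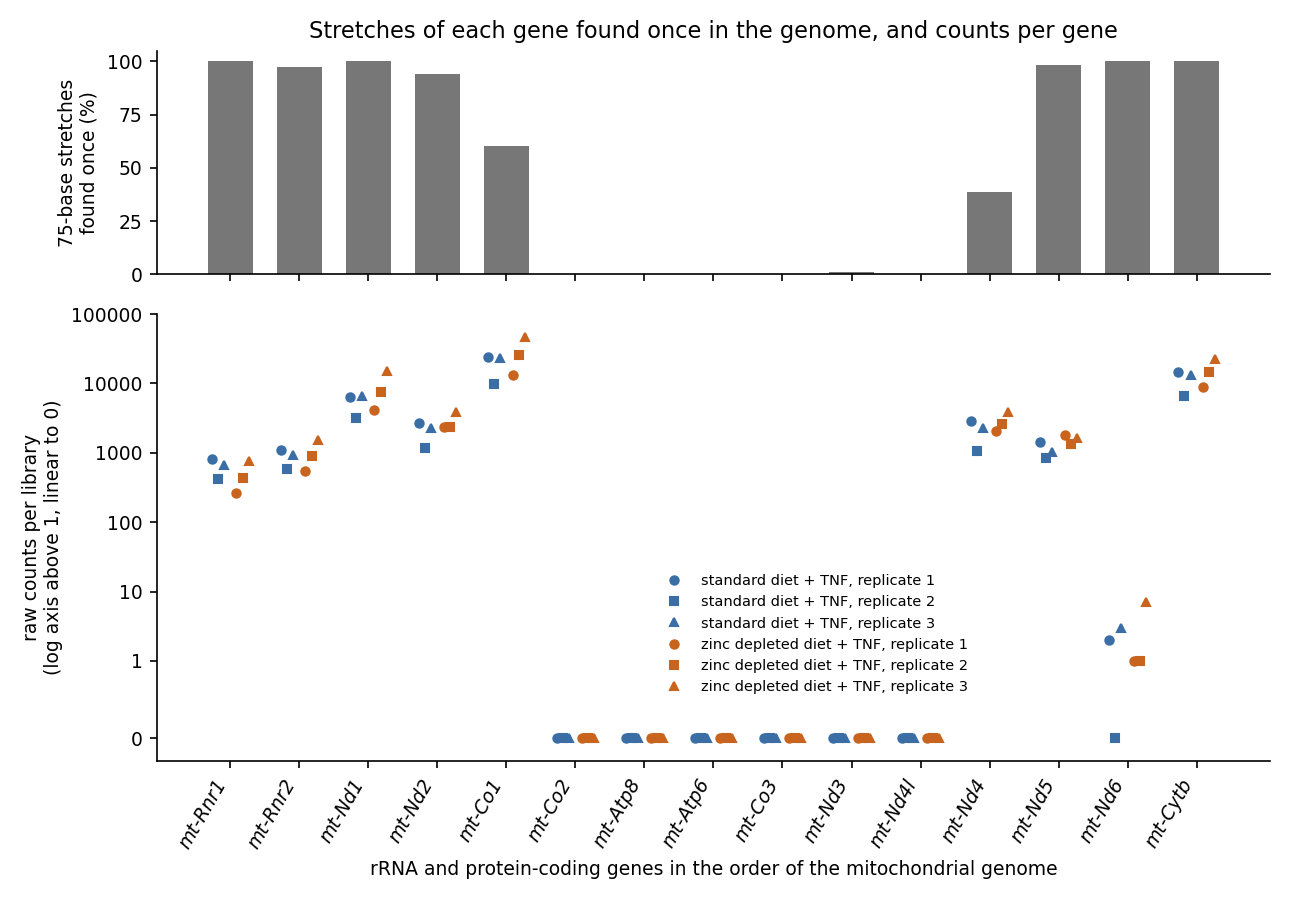
Top: percent of 75-base stretches of each rRNA and protein-coding gene that occur once in GRCm39. Bottom: raw counts of the same genes in each library, on an axis that is logarithmic above 1 and linear down to 0. The 6 genes from mt-Co2 to mt-Nd4l have shares of 0% to 1.09% and are at 0 counts in all 6 libraries, while mt-Nd6 has a share of 100% and 0 to 7 counts.

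A further protein-coding gene was barely counted although its sequence is unique. mt-Nd6, the complex I subunit encoded on the other strand from the remaining 12 protein-coding genes, had 2, 0 and 3 counts on standard chow (replicates 1, 2 and 3) and 1, 1 and 7 counts on zinc depleted chow. Every one of its 445 stretches of 75 bases occurs once in the genome. It overlaps mt-Nd5 by 14 bases on the opposite strand. Whether the authors' counter used strand is not given in the sources used here, so reads from the opposite strand of mt-Nd6 cannot be told apart from its own. A count of 0 in standard diet replicate 2 allows up to 3 counts, which is 0.489 CPM (counts scaled to a library total of 1000000).

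The tRNAs were close to undetected. Of the 22 tRNA genes, which are 59 to 75 bases long, 19 had no count in any library. mt-Tt, the threonine tRNA next to mt-Cytb, was the only tRNA counted in every library. It had 2, 2 and 12 counts on standard chow and 5, 7 and 5 counts on zinc depleted chow. mt-Tw had 0 to 2 counts and mt-Tm had a single count in 1 library. Of the 22 genes, 10 consisted only of 50-base stretches that occur once in the genome, and 2 of these 10 held a count. Of the 9 with no 50-base stretch that occurs once, 8 were at 0 and mt-Tw held counts. All tRNA counts of a library together came to between 2 and 15. The sequence of mt-Tt (chrM:15289-15355) is given because it is the only tRNA with a level in each library.
mt-Tt: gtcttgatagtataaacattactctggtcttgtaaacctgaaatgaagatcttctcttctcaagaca

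The libraries held between 6139397 and 12772373 counts. Paneth cell markers (Lyz1, Defa24, Defa30, Itln1, Mmp7, Ang4 and Mptx2) together took 51.2% to 64.5% of the counts of a library, and the 28 core alpha-defensins alone took 45.5% to 60.5%. Among markers of other cells, those of goblet cells summed to 4828 to 12022 CPM, tuft cells to 21.0 to 645 CPM, enterocytes to 12.9 to 132 CPM and enteroendocrine cells to 6.59 to 53.8 CPM. Of the goblet cell markers, Spink4 had 4025 to 6560 CPM. Muc2 and Clca1 were highest in zinc depleted replicate 1, with 4532 and 72.1 CPM. Tff3, Fcgbp, Zg16 and Spink4 were highest in other libraries. Immune markers summed to 66.3 to 156 CPM with Cd3e at 0 in every library, and stromal and erythroid markers to at most 5.54 CPM. The 4 crypt stem cell markers summed to 1172 to 3567 CPM on standard chow and 472 to 565 CPM on zinc depleted chow, without overlap. Most of this sum was Olfm4, with 3372, 1248 and 1120 CPM on standard chow and 492, 418 and 511 CPM on zinc depleted chow. Olfm4 and Ascl2 did not overlap between the diets, and Lgr5 and Smoc2 did. The 18S rRNA gene Rn18s-rs5, of nuclear origin, took 1.27% to 2.91% of the counts on standard chow and 0.522% to 0.884% on zinc depleted chow, without overlap. Of all tested genes, 10.3% were lower on zinc depleted chow without overlap in CPM. None of the marker genes passed the edgeR test described below, and their part in the mitochondrial results was not tested. In bulk samples, fewer cells of a type and less RNA per cell cannot be told apart.

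The mitochondrial genes took less than 1% of the counts. The share of all 37 genes was 0.734%, 0.387% and 0.506% in libraries from standard chow (replicates 1, 2 and 3) and 0.332%, 0.752% and 0.754% in those from zinc depleted chow. The lowest and the highest value were thus both in the zinc depleted group, and the groups overlapped. The Wilson 95% interval was widest in zinc depleted replicate 2, from 0.746% to 0.758%, and covers counting error only. These shares hold nothing from the 6 mRNAs listed at 0. The mean was 0.542% ± 0.176 (SD, n = 3) on standard chow and 0.613% ± 0.243 (SD, n = 3) on zinc depleted chow, a difference of 0.0703 percentage points that was smaller than either SD. No p is given for sums over the genes, and 3 libraries against 3 could not go below 0.1 in an exact permutation test.

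Nearly all of this share was mRNA. The protein-coding genes took 0.523% ± 0.171 (SD, n = 3) of the counts on standard chow and 0.598% ± 0.237 (SD, n = 3) on zinc depleted chow. The 2 rRNAs took 0.0195% ± 0.00580 (SD, n = 3) and 0.0145% ± 0.00560 (SD, n = 3). The values of both classes overlapped between the diets. As the alpha-defensins take a large part of each library, the share was also taken of the counts outside them. It then was 1.37%, 0.710% and 1.13% on standard chow and 0.622%, 1.699% and 1.91% on zinc depleted chow. Outside the alpha-defensins and 11 other Paneth cell products it was 2.23%, 1.30% and 2.58% on standard chow and 1.19%, 4.76% and 5.50% on zinc depleted chow. Zinc depleted replicate 1 was the lowest library on each of these scales, and zinc depleted replicates 2 and 3 were the highest.

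**Figure D2:**
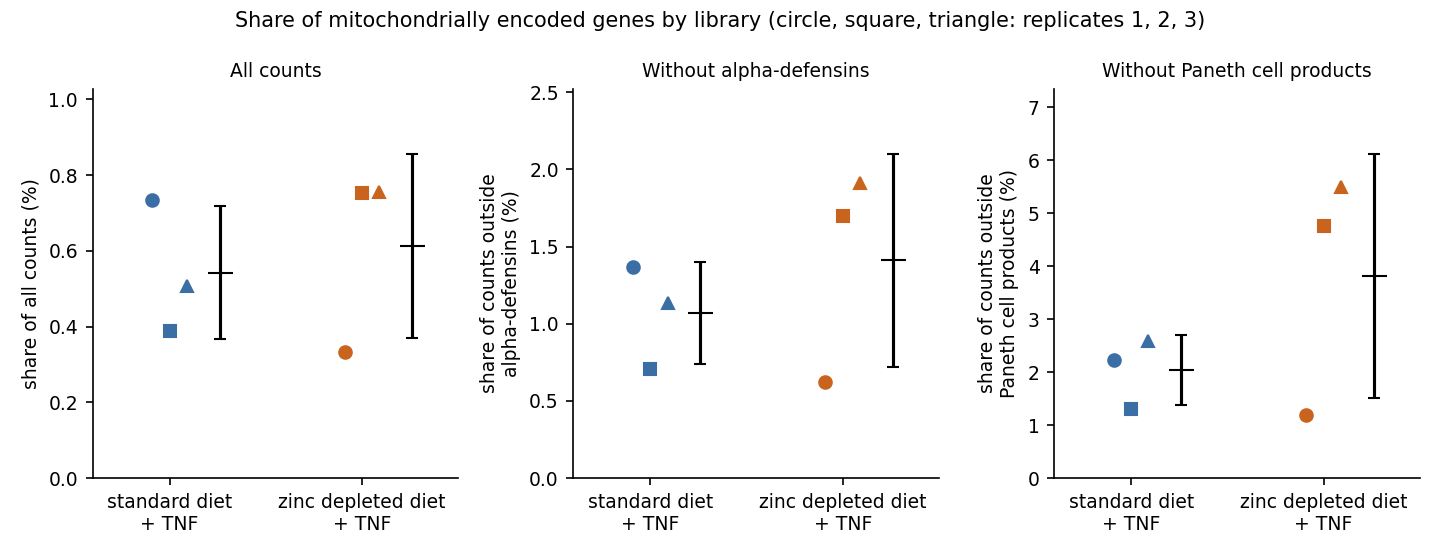
Share of the 37 mitochondrial genes in each library, as a percent of all counts (left), of counts outside the alpha-defensins (middle) and of counts outside the alpha-defensins and other Paneth cell products (right). Points are libraries and the bar to the right of each group is its mean ± SD (n = 3). The diets overlap in each panel because zinc depleted replicate 1 (0.332%, 0.622% and 1.19%) is below every standard diet library.

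The levels of the 8 measured genes were compared next. Levels are given as CPM per 1000 of the 75-base stretch starts that occur once in the genome, which scales mt-Co1 and mt-Nd4 as if only their unique part had been counted. Whether that holds was not tested, and the values per kilobase of the whole gene are given after them. Over the 6 libraries the order was mt-Co1, mt-Cytb, mt-Nd1, mt-Nd4, mt-Nd2, mt-Nd5, mt-Rnr1 and mt-Rnr2. mt-Co1, the catalytic subunit of complex IV, had the highest level with 2957 ± 1147 (SD, n = 6). mt-Cytb had 1410.4 ± 439 (SD, n = 6) and mt-Nd1 had 878 ± 336 (SD, n = 6). The level of mt-Nd4 was 549.7 ± 170.5 (SD, n = 6), that of mt-Nd2 302 ± 73.7 (SD, n = 6) and that of mt-Nd5 89.1 ± 21.2 (SD, n = 6). The rRNAs were the lowest, with 73.8 ± 30.7 (SD, n = 6) for mt-Rnr1 and 71.9 ± 22.4 (SD, n = 6) for mt-Rnr2. Each step down to mt-Nd5 held within all 6 libraries. mt-Nd5 was above mt-Rnr1 in 4 of 6 libraries and mt-Rnr1 above mt-Rnr2 in 3 of 6, so these 3 genes could not be ordered. The study's methods do not say how RNA was selected for the libraries, and the part of that step in the rRNA levels was not tested.

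The complex I mRNAs were therefore very uneven, although all 4 lie on the same strand. The level of mt-Nd1 was 1.13 to 2.26 times that of mt-Nd4 within a library, and that of mt-Nd2 was 2.49 to 4.46 times that of mt-Nd5. The order of mt-Nd4 and mt-Nd2 rests on the length that is used. Per kilobase of the whole gene, mt-Nd2 had a level of 264 CPM and mt-Nd4 of 200.2 CPM, with mt-Nd2 higher in all 6 libraries. Per unique stretch start, mt-Nd4 was higher in all 6. The level of mt-Co1 per kilobase was 1694 CPM, 1.08 to 1.52 times that of mt-Cytb, against 1.76 to 2.48 times per unique stretch start.

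**Figure D3:**
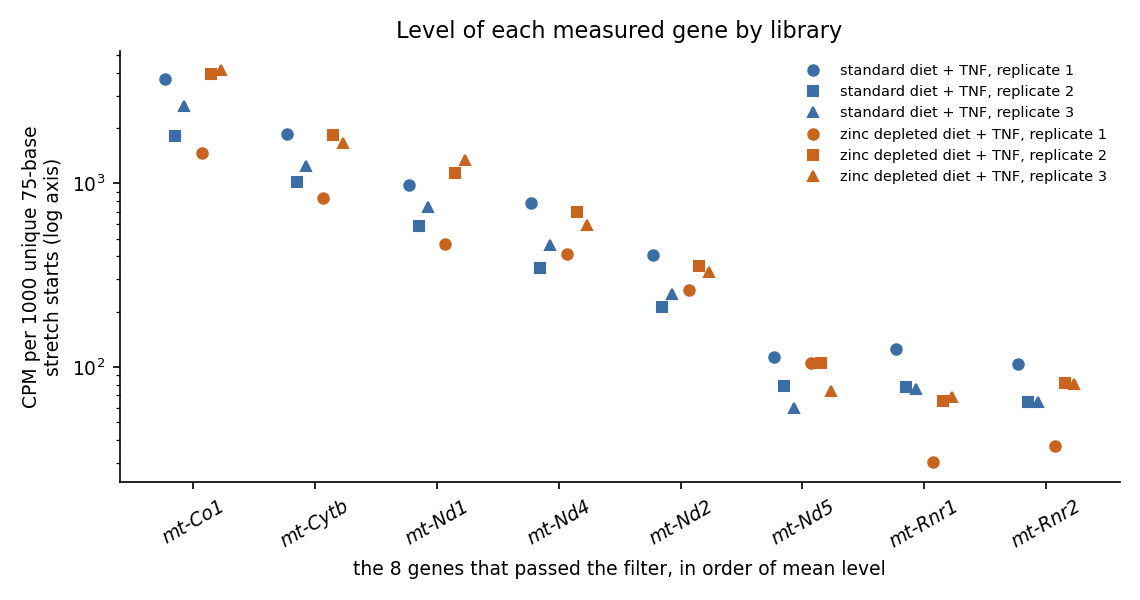
Level of the 8 measured genes in each library as CPM per 1000 unique 75-base stretch starts, on a log axis, with genes in order of their mean. The mean falls from 2957 for mt-Co1 to 89.1 for mt-Nd5, and the 3 genes at the right overlap.

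As CPM of all counts, not corrected for length, mt-Co1 had 3273, 1600.5 and 2349 CPM on standard chow and 1305, 3511 and 3663 CPM on zinc depleted chow. mt-Cytb had 1983, 1089 and 1327 CPM on standard chow and 895, 1976 and 1785 CPM on zinc depleted chow. mt-Nd1 had 869, 517 and 661 CPM on standard chow and 414, 1003 and 1187 CPM on zinc depleted chow. For these 3 genes zinc depleted replicate 1 was the lowest of all 6 libraries and the groups overlapped. mt-Nd2 had 371, 193 and 226 CPM on standard chow and 238, 321 and 299 CPM on zinc depleted chow. mt-Nd4 had 391, 174 and 231 CPM on standard chow and 208, 353 and 299 CPM on zinc depleted chow. mt-Nd5 had 194, 135 and 103 CPM on standard chow and 181, 180.1 and 127 CPM on zinc depleted chow. These 3 complex I mRNAs were highest in standard diet replicate 1, and the groups overlapped here too.

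The test for diet was run over all genes, and no mitochondrial gene passed it. Counts were tested with the quasi-likelihood test of edgeR with TMM scaling, and p-values were adjusted over the 9749 genes that passed the filter on low counts. Of the 8 mitochondrial genes, 0 had an adjusted p under 0.05, as had 0% of all tested genes. At an unadjusted p under 0.05 there was 1 of 8 (mt-Nd5), beside 6.62% of all genes. DESeq2 called 0 of the 8, with 6 at an unadjusted p under 0.05, beside 0.103% and 8.36% of all genes. With limma-voom these numbers were 0 and 1 of 8, beside 0% and 6.41% of all genes.

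All 8 fold changes were above 0 with TMM scaling, where 50% of all genes were. mt-Nd1 had the largest, with a log2 fold change of 1.49 (SE 0.70) for zinc depletion against standard diet. That of mt-Co1 was 1.36 (SE 0.74), that of mt-Cytb 1.18 (SE 0.66) and that of mt-Nd4 1.16 (SE 0.58). mt-Nd2 had 1.14 (SE 0.54) and mt-Nd5 1.10 (SE 0.44). The edgeR adjusted p of each of these 6 mRNAs was 0.681. The rRNAs were lower in this list, with 0.92 (SE 0.60, edgeR adjusted p 0.697) for mt-Rnr2 and 0.37 (SE 0.59, edgeR adjusted p 0.856) for mt-Rnr1. The median of the 8 was 1.15, against 0.00 over all tested genes. The abundant Paneth cell transcripts had medians of similar size in the same fit. That of the 20 tested alpha-defensins was 1.16 (19 of 20 above 0), and that of 10 other Paneth cell products was 1.39 (10 of 10 above 0).

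These values depend on the scaling, and the TMM factors ranged from 0.460 to 1.73 between the libraries. With total counts only, the median over all genes moved to -0.66 and that of the 8 genes to 0.11. The 6 mRNAs were then between 0.08 and 0.35, and both rRNAs turned negative, at -0.22 (mt-Rnr2) and -0.77 (mt-Rnr1). Above 0 were 6 of the 8 genes, beside 13.1% of all genes. Of the 8, 0 had an unadjusted p under 0.05 on this scale, beside 6.08% of all genes. Scaling by mitochondrial mRNA counts sets the 6 mRNAs near 0 by construction, so it was used only to place the rRNAs relative to them. Without a filter on low counts 12 mitochondrial genes could be tested, of which 0 had an adjusted p under 0.05 and 5 an unadjusted p under 0.05, beside 0.427% and 8.03% of all genes. The values also depended on single libraries. Without zinc depleted replicate 1, the median of the 8 was 1.57 and all 8 had an unadjusted p under 0.05 and a higher level, beside 12.3% of all genes, with a lowest edgeR adjusted p of 0.117. Without zinc depleted replicate 3 the median was 0.80.

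**Figure D4:**
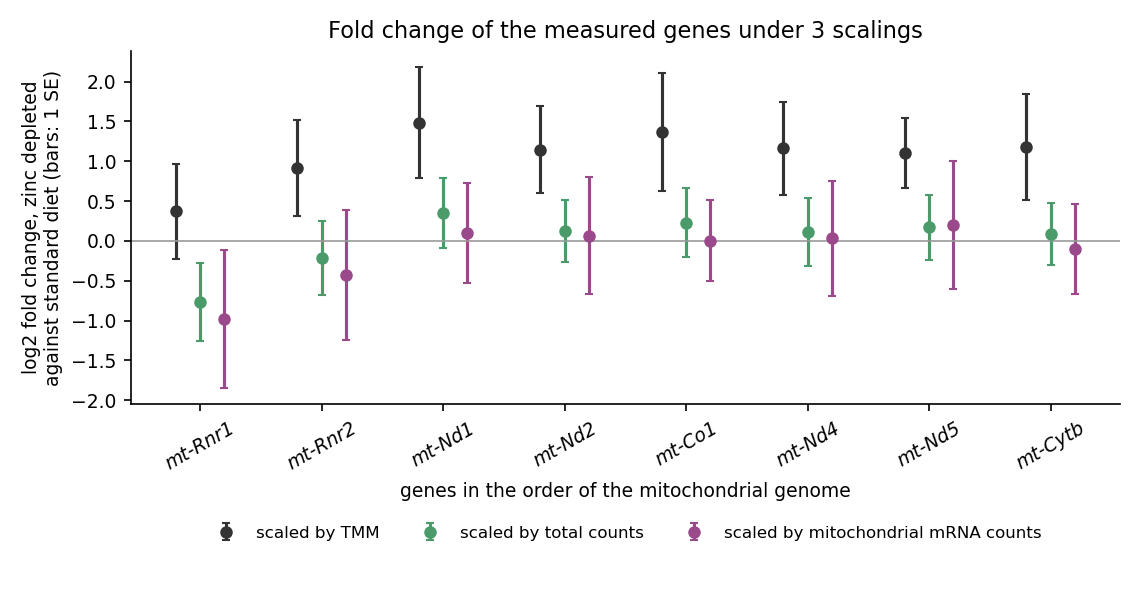
Log2 fold change of the 8 measured genes, zinc depleted against standard diet, from edgeR with 3 scalings (bars are 1 SE, 3 libraries per group). With TMM the genes lie between 0.37 and 1.49, and with total counts between -0.77 and 0.35. Scaled by mitochondrial mRNA counts, the 6 mRNAs lie between -0.10 and 0.20, near 0 by construction, and the rRNAs are at -0.98 and -0.43.

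The composition within the mitochondrial counts is computed without the nuclear transcripts, and here the rRNAs stood apart by diet. The 2 rRNAs made up 3.57%, 4.19% and 3.18% of the mitochondrial counts on standard chow and 2.43%, 2.35% and 2.37% on zinc depleted chow. The lowest standard diet library was above the highest zinc depleted library. The mean was 3.65% ± 0.510 (SD, n = 3) on standard chow and 2.38% ± 0.0408 (SD, n = 3) on zinc depleted chow, a difference of -1.27 percentage points. It was between -1.498 and -0.99 percentage points when any 1 library was left out.

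Of the rRNAs, mt-Rnr1 had the wider separation. The 12S rRNA mt-Rnr1 made up 1.505%, 1.77% and 1.33% of the mitochondrial counts on standard chow and 0.798%, 0.764% and 0.798% on zinc depleted chow. The 16S rRNA mt-Rnr2 made up 2.07%, 2.43% and 1.86% on standard chow and 1.63%, 1.59% and 1.57% on zinc depleted chow. In CPM of all counts, mt-Rnr1 was the only one of the 8 genes whose groups did not overlap, with 111, 68.4 and 67.2 CPM on standard chow and 26.5, 57.5 and 60.1 CPM on zinc depleted chow. The share of all tested genes without overlap was 10.9%, made up of 10.3% that were lower and 0.554% that were higher on zinc depleted chow. With TMM the log2 fold change of mt-Rnr1 was 0.37 (SE 0.59, edgeR adjusted p 0.856), of the opposite sign. mt-Rnr2 had 152, 94.0 and 94.0 CPM on standard chow and 54.2, 119.5 and 118.5 CPM on zinc depleted chow, and overlapped.

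The proportion of the 2 rRNAs to each other was separated by diet too. There were 0.729, 0.728 and 0.714 counts of mt-Rnr1 per count of mt-Rnr2 in libraries from standard chow and 0.489, 0.481 and 0.507 in those from zinc depleted chow. The mean ratio was 0.724 ± 0.00809 (SD, n = 3) and 0.492 ± 0.0135 (SD, n = 3). The difference of -0.23 was much larger than the spread within either diet, and it was between -0.24 and -0.23 when any 1 library was left out. As a share of the rRNA counts, mt-Rnr1 was at 42.2%, 42.1% and 41.7% on standard chow and 32.8%, 32.5% and 33.7% on zinc depleted chow. The lowest lower limit of the Wilson 95% intervals on standard chow was 39.1%, and the highest upper limit on zinc depleted chow was 36.2%. These intervals cover counting error only, not variation between animals. The ratio was chosen after its values were seen, so no test is given for it.

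This ratio was 1 of 28 that can be formed from the 8 genes, and 10 of the 28 did not overlap between the diets. All 7 ratios with mt-Rnr1 were among the 10, as were 3 of the other 6 with mt-Rnr2 and 0 of the 15 between mRNAs. These ratios share genes and are not independent. Over all pairs of tested genes with a count in every library, 10.9% of the ratios did not overlap. In the edgeR fit scaled by mitochondrial mRNA counts, mt-Rnr1 had a log2 fold change of -0.98 (SE 0.87) and mt-Rnr2 of -0.43 (SE 0.82). Neither passed the threshold. In that fit 0 of all 9749 tested genes passed and 86 had an unadjusted p under 0.05. Its adjusted p therefore says little about the rRNAs. As shares of all counts, the nuclear 18S rRNA and the summed stem cell markers were lower on zinc depleted chow without overlap. The mitochondrial rRNAs were lower without overlap as a part of mitochondrial counts, but their share of all counts overlapped. With TMM the log2 fold change was -0.40 for the 18S rRNA, 0.37 for mt-Rnr1 and 0.92 for mt-Rnr2. The median of the 3 tested stem cell markers was -0.94. Most of the stem cell sum was Olfm4. The part of the 18S rRNA and of the stem cell markers in the rRNA results was not tested.

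**Figure D5:**
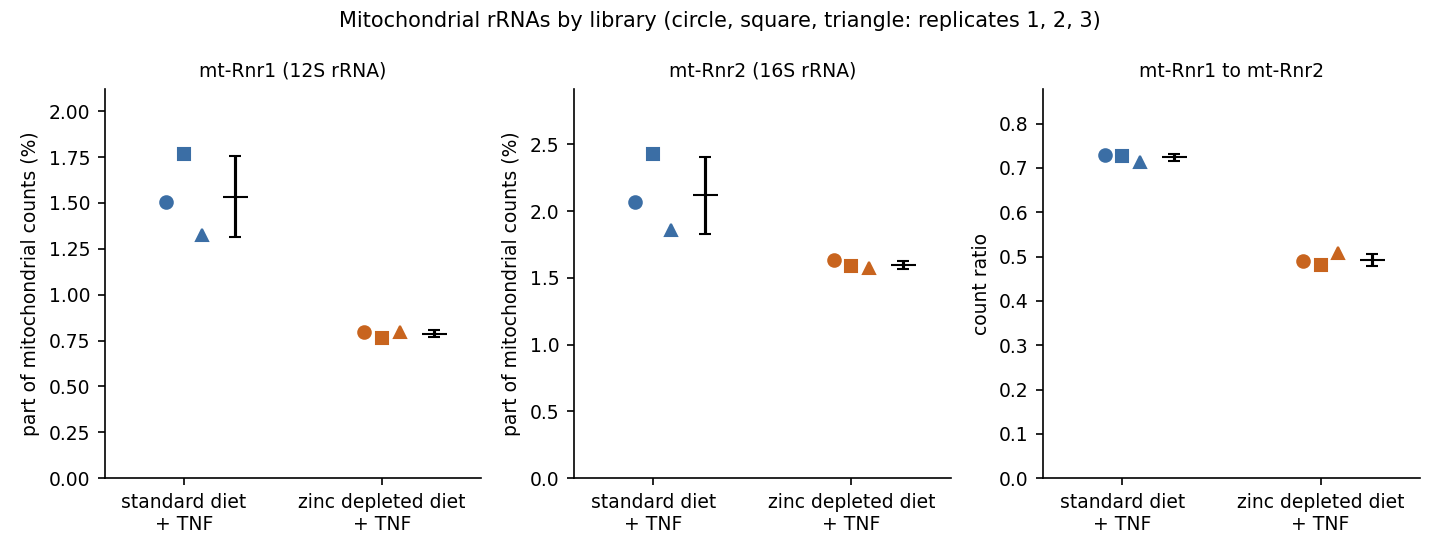
mt-Rnr1 and mt-Rnr2 as a percent of mitochondrial counts, and their count ratio, in each library, with the mean ± SD (n = 3) to the right of each group. The ratio lies between 0.714 and 0.729 on standard chow and between 0.481 and 0.507 on zinc depleted chow.

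The proportions of the 6 mRNAs overlapped between the diets. mt-Co1 made up 44.6%, 41.3% and 46.4% of the mitochondrial counts on standard chow and 39.3%, 46.7% and 48.6% on zinc depleted chow. The mRNA counts hold nothing from the genes at 0, which were 2 of 7 in complex I, 2 of 3 in complex IV and 2 of 2 in complex V. Of these counts, complex I mRNAs took 24.9% to 27.5% on standard chow and 25.3% to 32.1% on zinc depleted chow. The highest of these values was in zinc depleted replicate 1, the library with the lowest mitochondrial share. In that library mt-Nd5 made up 5.45% of the mitochondrial counts, against 1.68% to 3.49% in the other 5. mt-Nd2 and mt-Nd4 were also highest there, with 7.17% and 6.25%, against 3.96% to 5.05% and 3.96% to 5.32%. mt-Nd1 was not, with 12.5% there and 11.8% to 15.7% in the others.

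The nuclear genes that copy, transcribe and process mitochondrial DNA were split between higher and lower values. Of 42 such genes, 37 were tested, 0 passed the edgeR test in either direction, 0 higher and 2 lower (Mgme1 and Twnk) had an unadjusted p under 0.05, beside 6.62% of all tested genes, and 18 were higher and 19 lower. Their median log2 fold change was -0.10 (-0.75 with total counts only). Polrmt, the mitochondrial RNA polymerase, had 10.6, 8.31 and 3.51 CPM on standard chow and 4.30, 2.42 and 0.783 CPM on zinc depleted chow, and edgeR estimated -0.89 on the log2 scale (SE 0.48, adjusted p 0.681). Twnk, the replicative helicase, had 17.2, 12.7 and 2.71 CPM on standard chow and 5.805, 1.88 and 0.626 CPM on zinc depleted chow, and edgeR estimated -1.34 on the log2 scale (SE 0.56, adjusted p 0.681). Both overlapped between the diets, as replicate 3 of the standard diet was below replicate 1 of the zinc depleted group.

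Tfam, which packages mitochondrial DNA and starts its transcription, had 35.8, 22.2 and 16.5 CPM on standard chow and 13.3, 12.8 and 9.87 CPM on zinc depleted chow. These values did not overlap, but edgeR with TMM put the difference at -0.10 on the log2 scale (SE 0.41, adjusted p 0.947). The share of all tested genes that were lower on zinc depleted chow without overlap in CPM was 10.3%. The log2 fold changes of the DNA polymerase Polg and of Lrpprc, which stabilises mitochondrial mRNAs, were -0.60 (SE 0.42) and -0.62 (SE 0.39). Those of Tfb2m, Slirp and Ssbp1 were 0.56 (SE 0.52), 0.64 (SE 0.53) and 0.86 (SE 0.64). For these 5 genes the adjusted p from edgeR lay between 0.693 and 0.762. In CPM, Slirp was also lower on zinc depleted chow without overlap. It had 10.4, 9.45 and 9.02 CPM on standard chow and 5.80, 7.67 and 8.85 CPM on zinc depleted chow.

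The proteins of the mitochondrial ribosome, which carry the 2 rRNAs, are encoded in the nucleus. Of 78 genes named Mrpl or Mrps, 76 were tested, 0 passed the edgeR test and 0 had an unadjusted p under 0.05. Over all tested genes these shares were 0% and 6.62%. With TMM 52 were higher and 24 lower on zinc depleted chow (median 0.39 on the log2 scale). Of all tested genes 50% were above 0 with TMM, with a median of 0.00. With total counts only 5 of 76 were higher (median -0.55). Their summed level was 903 to 1328 CPM on standard chow and 765 to 784 CPM on zinc depleted chow, without overlap. On the scale of total counts 13.1% of all tested genes were above 0, and 10.3% were lower without overlap in CPM. Of 10 regulators of mitochondrial biogenesis, among them Ppargc1a, Nrf1 and Esrra, 8 were tested, 4 were higher and 4 lower, 0 passed the edgeR test and 1 of the 8 (Gabpb1) had an unadjusted p under 0.05, beside 6.62% of all tested genes.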

How the data were processed

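The table that the authors deposited holds counts without normalization, in 1 column for each of 6 libraries. Per the labels, single-end reads of the Element AVITI instrument were processed with FastQC, Trimmomatic 0.39 and STAR 2.7.10a on mm39 (GRCm39). Which program counted the reads, whether it used strand, and what it did with reads that match several places: not given in the sources used here. The study's methods do not describe how RNA was selected by kind or size before sequencing. Its part in the rRNA and tRNA counts was not tested. Identifiers were matched to GENCODE M39 on GRCm39, and the mitochondrial sequence and its nuclear copies were read from the same build.

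Shares and CPM are relative to all counts of a library (6139397 to 12772373). A count of 0 allows up to 3 counts, or 0.235 to 0.489 CPM, and Wilson 95% intervals, like this limit, cover counting error only. Genes were tested with edgeR 4.0.16 (R 4.3.3, filterByExpr, TMM, diet as the only term, two-sided, Benjamini-Hochberg over 9749 genes, threshold 0.05). SE is the absolute log2 fold change divided by the square root of F. Alternatives were DESeq2 1.42.0, limma-voom (limma 3.58.1), RLE factors, total counts, TMM without Paneth cell products, scaling by mitochondrial mRNA counts, no filter, a replicate block and each library left out. The edgeR procedure was tested on simulated data.

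Every rRNA and protein-coding gene is named. As no tRNA passed the filter, the 5 with the highest mean CPM were to be named, but only 3 held a count. Of the nuclear genes, Tfam, Polrmt, Tfb2m, Twnk, Polg, Lrpprc, Slirp and Ssbp1 were fixed, and up to 3 with an adjusted p under 0.05 per list were allowed. Of the annotated pseudogenes that overlap exact nuclear copies of at least 200 bases, the 3 with the highest mean CPM are named. Other pseudogenes, Mgme1, Gabpb1 and the rRNA ratio were chosen after their values were seen. The genes and lists were chosen with earlier results of these data known. Libraries of 1 diet differed by more than sampling noise (chi-square per degree of freedom 15.3 to 168), so each counts as 1 sample. The labels do not tie libraries to animals, and the study speaks of individual mice.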

Additional observations from a re-analysis of the deposited data

How the results depend on the processing

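Of the 112 alternative fold changes of the 8 tested genes, 106 kept their direction and none passed the threshold in any alternative. The 6 that turned negative were mt-Rnr1 with total counts only (-0.77), scaled by mitochondrial mRNA (-0.98) and without zinc depleted replicate 3 (-0.16, against up to 0.86 with another library left out), mt-Rnr2 with total counts only (-0.22) and scaled by mitochondrial mRNA (-0.43), and mt-Cytb scaled by mitochondrial mRNA (-0.10). Scaling by mitochondrial mRNA sets the mRNAs near 0 by construction, so its value for mt-Cytb and its median say nothing about stability. The median of the tested genes was 0.11 with total counts only and 0.018 scaled by mitochondrial mRNA, and 0.80 to 1.57 with 1 library left out. The number of calls over all genes was 0 in the main edgeR fit and 10 with DESeq2. edgeR gave 76 without the filter on low counts, and 0 to 28 with 1 library left out. The 28 were without standard diet replicate 3, and the cause was not tested. The log2 ratio of the mitochondrial share, 0.13 with all libraries, was between -0.09 and 0.52 with 1 library left out: leaving out standard diet replicate 2, or replicate 2 or 3 of the zinc depleted group, made it negative. Deviations of replicates with the same number had an r of 0.15, -0.06 and 0.25 over 9749 genes, and those with different numbers -0.28 to 0.25. With 3 libraries per group this cannot decide whether the numbers pair the samples, and the labels give no pairing. With the replicate block the calls stayed at 0, the median of the 8 genes was 1.00 and no call changed. mt-Nd6 and the tRNAs held at most 12 counts per gene and library, which limits what can be read for them. The cause of these low counts was not tested.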

Other observations

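A nuclear copy on another chromosome did hold counts. Gm13340 (chromosome 2, 22478115 to 22479659, minus strand), a pseudogene of 1545 bases, the length of mt-Co1, had 27, 13 and 45 counts on standard chow and 8, 27 and 76 counts on zinc depleted chow. Only 39 of its bases lie in an exact match of at least 200 bases. Its mean of 3.45 CPM compares with 2617 CPM for mt-Co1. Gm29216 (chromosome 1, 24654787 to 24655278, minus strand), which reaches 13 bases beyond the copied stretch, had 3 counts in standard diet replicate 1 and 0 in the other libraries. Gm13341 (chromosome 2, 22477303 to 22477974, minus strand) had 1 count in 1 library of each diet. Over the whole nuclear genome, 47 exact matches of at least 50 bases to the mitochondrial genome were found, and 5 of these were of at least 200 bases.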
